A study of Citrus sinensis with 6 samples.

Results

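Self-pruning is the programmed loss of the tip of a spring shoot in citrus, and the comparison described here is that between shoot tips at the beginning of self-pruning (stage 2) and shoot tips taken 3 days earlier (stage 1). It was read in all citrus probe sets of a citrus oligonucleotide array, that is in 30171 of 30395 probe sets, on 4 of the 6 arrays of the series. The other 224 probe sets carry the array's controls and pathogen sequences and served as a background check. Both stages came from adult sweet orange trees (Citrus sinensis Osbeck 'Cara Cara' navel orange) in an experimental field, with no treatment and no genotype difference between them. The stage 2 group held 2 arrays of shoot tips in which the separation layer had become visible. The stage 1 group held 2 arrays of tips sampled before that layer could be seen. Stage 1 is not an undisturbed tip, since the study describes its tips as already turning from green to yellow with lobes of some tips starting to drop. The third group, 2 arrays of tips from 7 days after self-pruning, entered the fit only to help estimate the spread. Each tip was 0.5 to 2 cm long and included the abscission zone, so meristem, leaf primordia, young stem and separating cells were measured as one extract, and fewer cells of a type cannot be told apart from less RNA per cell.

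In abscission, a narrow band of small cells at a fixed position loosens its walls and lets the distal organ go. Ethylene and abscisic acid are known to hasten the process in many plants and auxin flowing from the organ to delay it, while pectin-degrading enzymes, cellulases and expansins dissolve or loosen the wall between neighbouring cells. In a shoot tip the same event ends the terminal meristem, and a lateral bud later takes over growth. Senescing and shedding organs are also known to hand nitrogen, phosphate and lipids back to the plant before they are lost.

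Several of the probe sets that moved most had no homologue at all, so their designed primers are the sequence by which they can be recognised. The study designed PCR primers for 4 of them and for 2 transcription factors that fell, and these are printed 5′ to 3′ in lower case, sense primer before antisense primer.
Cit.1868 sense: gatgaggaccagttccattc
Cit.1868 antisense: gattattcagccaccgccac
Cit.30672 sense: aagagcagcgacgaggagga
Cit.30672 antisense: gccataatcatagccacagg
Cit.8587 sense: gcgattcaatgcgatgtt
Cit.8587 antisense: actgccaaaggttccaaa
Cit.9817 sense: tggcattagcaaaccctc
Cit.9817 antisense: actgctaaggcgattcag
Cit.1497 (NAC domain protein) sense: ccagggtttaggtttcac
Cit.1497 antisense: ttcgggtactttcggtct
Cit.3778 (ERF017-like) sense: tatctggctgggctccta
Cit.3778 antisense: atgtcgggtgggttgtcc

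The beginning of self-pruning was marked by a small number of very large falls and by rises that were fewer and less steep. With the limits named in the study's methods, a 4-fold difference with p no higher than 0.001 before adjustment, 22 probe sets were higher at stage 2 (0.0729% of those tested) and 109 were lower (0.361%). The p-values here came from limma, whereas the study took its own from SAM, so these counts are not those the study reported. The largest fall was 119-fold, in a laccase, and the largest rise was 7.62-fold, in an inorganic pyrophosphatase. At 2-fold and an adjusted p under 0.05, 229 probe sets were higher (0.759%) and 346 were lower (1.15%). Values are log2 signals throughout, a difference is the stage 2 mean minus the stage 1 mean, and 1 unit is a 2-fold difference in signal.

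Far more probe sets passed the test with small differences. At an adjusted p under 0.05, 6080 probe sets (20.2%) were called higher and 6493 (21.5%) lower, while 17598 were not called. These shares are the background for the gene list counts below. The split between the directions depended on the scaling: it was 48.4% higher among called probe sets as deposited and 60.7% higher once each array was centred on its median. Of the 12573 calls (41.7% of the probe sets), 8747 were no larger than 0.40, which was the largest difference in either direction among the control probe sets. Pathogen probe sets set that size with a rise, while the largest control fall was -0.24. Beyond 0.40 in either direction, 1896 probe sets were higher (6.28%) and 1930 lower (6.4%). The arrays of one stage were very alike (Pearson's r across probe sets 0.999 at both stages), so the test responded to small shifts, and p-values measure only the spread between these arrays. The labels call them biological replicates and the methods describe groups of 3 trees, but neither ties an array to its trees.

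**Figure D1:**
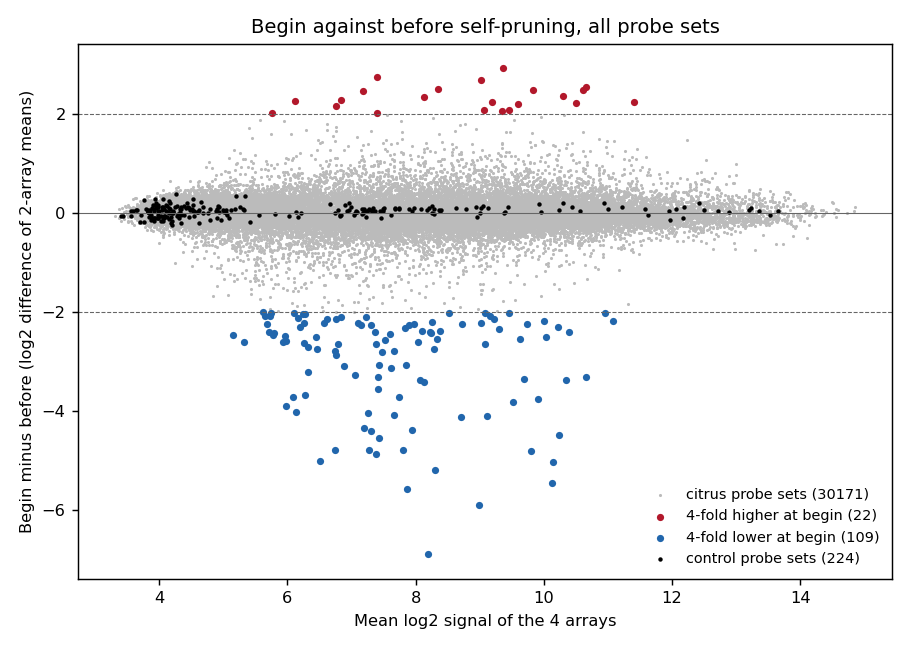
Begin minus before (log2 difference of 2-array means, vertical axis) against the mean log2 signal of the 4 arrays (horizontal axis) for all citrus probe sets (grey), those 4-fold higher at begin (red), those 4-fold lower at begin (blue) and control probe sets (black). The 109 blue points reach -6.90, the 22 red points reach 2.93, and all controls lie between -0.24 and 0.40.

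No detection calls were used here, so the floor was read from the controls. The brightest of 60 reporter probe sets, for genes that citrus lacks, read 5.67, and 48 of the 109 probe sets that fell 4-fold had a stage 2 mean at or below that, against 0 at stage 1. Random-sequence controls read 7.07 to 10.5, so background differs between probe sets, and how far a signal fell below it cannot be read for such genes. The actin controls hardly moved, with 13.50 and 13.53 at stage 2 against 13.54 and 13.57 at stage 1 for the 3′ probe set. The same gene was represented by more than 1 probe set for 20 of the 98 genes behind the 4-fold falls, and of their 10 further probe sets 7 were also called lower and 0 higher.

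The gene with the steepest fall was a laccase by its array name (Cit.2409.1.S1_s_at). Laccases are copper oxidases that couple lignin and other phenolic units in the wall. It read 4.81 and 4.67 at stage 2 against 11.64 and 11.62 at stage 1, a difference of -6.90 ± 0.055 (SE, n = 2 arrays each, adjusted p = 1.07e-05). Both stage 2 arrays lay at the level of the reporter controls, far below both stage 1 arrays. A second laccase, 110a-like (Cit.3628.1.S1_at), differed by -1.18, while laccase 3 (Cit.15075.1.S1_at) was at the level of the reporter controls at both stages, with 4.88 and 4.85 at stage 2 against 4.88 and 4.87 at stage 1. Over the list of 88 probe sets for phenylpropanoid and lignin enzymes 22 (25%) were called higher and 20 (22.7%) lower. The median difference of that list was 0.08 against 0.01 for all probe sets.

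Seed-type proteins formed a second group of steep falls. Late embryogenesis abundant (LEA) proteins protect cells that dry out, and glycinin and 11S globulin store nitrogen in seeds. The seed maturation protein LEA 4 (Cit.10895.1.S1_at) read 5.09 and 5.09 at stage 2 against 10.65 and 10.66 at stage 1. A separate entry with the same homologue name (Cit.39178.1.S1_s_at) read 5.72 and 5.72 against 10.91 and 10.88. The glycinin G1-like gene (Cit.26593.1.S1_at) read 7.32 and 7.46 against 12.18 and 12.21, a 27.9-fold fall. The 11S globulin seed storage protein 2 (Cit.20225.1.S1_at) read 5.72 and 5.80 against 10.10 and 10.16, a 20.7-fold fall. In each of these the stages were separated by more than 4 log2 units and the arrays of a stage by less than 0.15.

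The fall did not run through the whole seed list. Of 60 probe sets named for seed storage or LEA proteins on the array, 5 (8.33%) were called higher and 17 (28.3%) lower. Of the falls 6 were 2-fold or more, and the median difference was -0.05. Among the 57 probe sets of the seed marker list 32 lay at or below the brightest reporter control at both stages. The summed signal of that list was 13.26 to 13.28 at stage 2 against 14.33 at stage 1 on the log2 scale. A sum is led by the brightest probe sets, at stage 1 the steep fallers above. The median difference of the list was -0.08, with 3 called higher and 19 lower.

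Among the 42 gene lists, that of chitinases, glucanases and pathogenesis-related (PR) proteins held the most falls of 2-fold or more. Chitinases and β-1,3-glucanases break fungal walls, and thaumatin-like and PR proteins accumulate at infection and in ageing tissue. Of 67 probe sets with such names 9 were called higher and 33 (49.3%) lower, 15 of them by 2-fold or more, and the median difference was -0.18. Chitinase (Cit.302.1.S1_s_at) read 7.01 and 7.12 at stage 2 against 11.16 and 11.16 at stage 1, a 17.1-fold fall. A basic endochitinase (Cit.20412.1.S1_s_at) read 8.04 and 8.03 against 11.78 and 11.78, and the chitin-binding wound-induced protein WIN1 (Cit.753.1.S1_x_at) read 8.68 and 8.64 against 12.04 and 12.03. A thaumatin-like protein (Cit.1200.1.S1_s_at) read 9.0 and 9.01 against 12.32 and 12.29, and the other probe set of that gene fell by 2.02. All of these remained above the reporter controls at stage 2, but near or within the range of the random-sequence controls (7.07 to 10.5).

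Outside that list, snakin-2 (Cit.3665.1.S1_at), a cysteine-rich peptide that inhibits microbes, read 5.31 and 5.39 at stage 2 against 8.16 and 8.13 at stage 1, and its other probe set differed by -2.62. Not every defence gene was lower: a PR-1-like gene (Cit.31825.1.S1_at) was higher, with 8.70 and 8.76 against 7.73 and 7.92. Of 183 probe sets named for disease resistance, 35 (19.1%) were called higher and 12 (6.56%) lower, and none moved 2-fold. Over all probe sets 20.2% were called higher and 21.5% lower.

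Members of a small esterase family were also among the steep falls. Salicylic acid-binding protein 2 is known from tobacco as the enzyme that frees salicylic acid from its methyl ester, and polyneuridine-aldehyde esterase belongs to the same hydrolase family. The polyneuridine-aldehyde esterase-like gene (Cit.35.1.S1_x_at) read 7.35 and 7.46 at stage 2 against 12.87 and 12.85 at stage 1, a 43.9-fold fall. Salicylic acid-binding protein 2 (Cit.19437.1.S1_x_at) read 5.37 and 5.44 against 10.21 and 10.17. The second probe sets of these genes differed by -5.03 and -3.55, and a methyl esterase (Cit.4444.1.S1_at) differed by -2.07, all 3 called lower. On the array 7 probe sets carried names of this family, of which 5 were lower and 1 higher.

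Among other enzymes with steep falls, a cytochrome P450 71A1-like gene (Cit.5920.1.S1_at) read 4.07 and 3.94 at stage 2 against 9.02 and 9.0 at stage 1, a 32.2-fold fall to the floor. A flavonoid 3′-monooxygenase-like gene (Cit.3002.1.S1_s_at), named for a P450 step in flavonoid hydroxylation, fell 21.2-fold. These were not the rule for their families. Of 60 cytochrome P450 probe sets 23 (38.3%) were called higher and 7 (11.7%) lower. Of 61 probe sets for flavonoid synthesis 20 (32.8%) were higher and 8 (13.1%) lower. Over all probe sets 20.2% were higher and 21.5% lower.

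Several genes of nitrogen metabolism were among the steep falls. Asparagine synthetase makes the main nitrogen transport compound of many plants, amino acid permeases move amino acids across membranes, and the branched-chain aminotransferase acts at the last step of making, and the first of breaking down, leucine, isoleucine and valine. The branched-chain aminotransferase 2 (Cit.3629.1.S1_s_at) read 5.0 and 5.06 at stage 2 against 9.36 and 9.37 at stage 1, a 20.2-fold fall. An amino acid permease (Cit.2927.1.S1_s_at) read 5.68 and 5.57 against 9.71 and 9.70, a 16.9-fold fall. Asparagine synthetase (Cit.10058.1.S1_s_at) read 6.41 and 6.35 against 8.83 and 8.79, and 2 probe sets of a further copy (Cit.10060) differed by -2.19 and -2.02.

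The nitrogen list held changes in both directions. Of the 50 probe sets named for nitrogen and amino acid transport 6 (12%) were called higher and 18 (36%) lower, with 6 falls and 0 rises of 2-fold or more. A peptide and nitrate transporter (Cit.3171.1.S1_x_at) fell 5.65-fold. Tyrosine aminotransferase (Cit.14020.1.S1_at) and methionine gamma-lyase (Cit.1620.1.S1_s_at), both of which break amino acids down, fell 4.64-fold and 4.54-fold. Glutamine synthetase (Cit.9618.1.S1_s_at), which fixes ammonium, was slightly higher, with 11.63 and 11.64 against 11.12 and 11.14. A second amino acid permease (Cit.18023.1.S1_at) was also higher, with 9.56 and 9.53 against 8.84 and 8.87.

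**Figure D2:**
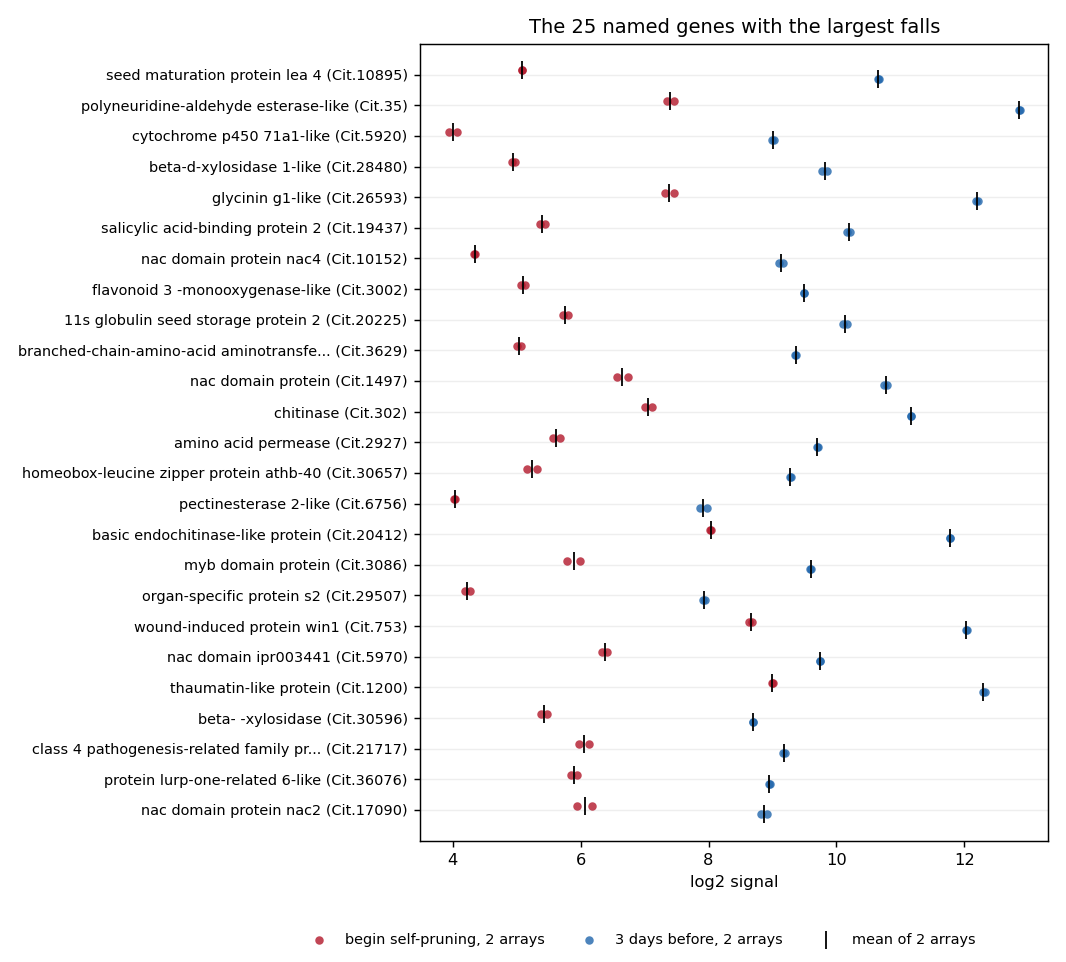
log2 signal (horizontal axis) of the 25 named genes with the largest falls, each point 1 array, begin self-pruning in red above 3 days before in blue, black ticks marking the mean of 2 arrays. Genes were chosen only where the arrays of the stages do not overlap, so the gap between stages is a condition of entry. The differences run from -5.57 for LEA 4 to -2.80 for NAC2.

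Transcription factors of the NAC family, which in other plants govern ageing, stress responses and secondary walls, included some of the steepest falls. NAC4 (Cit.10152.1.S1_s_at) read 4.35 and 4.34 at stage 2 against 9.10 and 9.16 at stage 1. A separate entry with the same homologue name (Cit.22463.1.S1_s_at) read 5.13 and 5.20 against 9.71 and 9.69. The further probe sets Cit.10152.1.S1_at and Cit.22463.1.S1_at had stage means at or below the floor at both stages and were not called, with differences of -0.04 and -0.25. The NAC domain protein Cit.1497.1.S1_s_at read 6.57 and 6.74 against 10.74 and 10.79, a 17.3-fold fall, and its neighbour in number, Cit.1496.1.S1_s_at, fell 10.7-fold. The study names Cit.1497 among the exceptions whose real-time PCR did not follow the trend of the array. Further NAC genes fell 10.3-fold (Cit.5970.1.S1_at) and 6.98-fold (NAC2, Cit.17090.1.S1_s_at). The family as a whole was mixed: of 43 probe sets with NAC names on the array 13 (30.2%) were called higher and 10 (23.3%) lower. A NAC gene called Cit.14405 rose by 1.28 and 1.43 in its 2 probe sets.

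Falls were also seen in homeodomain-leucine zipper factors. ATHB-40 (Cit.30657.1.S1_s_at), a homologue of an Arabidopsis factor of this class, read 5.16 and 5.32 at stage 2 against 9.27 and 9.29 at stage 1, a 16.4-fold fall. ATHB-7 (Cit.29688.1.S1_s_at), induced by abscisic acid in Arabidopsis, fell 4.77-fold and HAT5 (Cit.7103.1.S1_at) fell 4.30-fold. A MYB domain protein (Cit.3086.1.S1_at) read 5.79 and 5.99 against 9.59 and 9.61. Of 71 probe sets with MYB names 18 (25.4%) were called higher and 18 (25.4%) lower, shares near those over all probe sets.

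Ethylene response factors, which carry the ethylene signal to its target genes, included falls and a smaller rise. The ERF017-like gene (Cit.3778.1.S1_at) read 6.19 and 6.36 at stage 2 against 9.05 and 9.05 at stage 1, a 6.85-fold fall. ERF1B-like (Cit.4810.1.S1_at) fell 3.95-fold and ERF061-like (Cit.21825.1.S1_at) 3.77-fold, while an ethylene-responsive element binding factor (Cit.17124.1.S1_at) was higher, with 8.54 and 8.56 against 7.56 and 7.60. Of 30 probe sets with ERF or AP2 names 7 were called higher and 13 (43.3%) lower. A DNA binding protein, whose array name begins with the letters ethylen (Cit.289.1.S1_s_at), read 6.14 and 5.94 against 11.95 and 11.94, a 59.9-fold fall, and its second probe set fell by 2.60. The methyl esterase Cit.4444.1.S1_at has the same cut name, so these letters do not place Cit.289 among the ethylene response factors.

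Probe sets for ACC oxidase, which converts the precursor ACC into ethylene, were split. Cit.30535.1.S1_s_at read 10.52 and 10.48 at stage 2 against 9.05 and 9.07 at stage 1, and Cit.21723.1.S1_s_at read 11.07 and 11.06 against 9.66 and 9.68, rises of 2.71-fold and 2.63-fold. The other probe set of each gene was near the floor and was not called, with 5.62 and 5.61 against 5.48 and 5.35 for Cit.30535.1.S1_at and 3.86 and 3.63 against 3.74 and 3.75 for Cit.21723.1.S1_at. A further member of the list, whose array name is cut to 1-amino (Cit.1235.1.S1_s_at), was lower, with 12.23 and 12.21 against 12.84 and 12.82. An ethylene receptor by array name (Cit.28131.1.S1_s_at) was lower, with 8.21 and 8.27 against 9.17 and 9.20. Over the 23 probe sets for ethylene synthesis and perception 7 (30.4%) were called higher and 5 (21.7%) lower.

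The other hormone lists held single large changes and no common direction. The gibberellin receptor GID1B-like (Cit.16807.1.S1_at) read 7.0 and 7.05 at stage 2 against 9.45 and 9.45 at stage 1, a 5.36-fold fall. An enzyme named for gibberellin 2-oxidation (Cit.18766.1.S1_at), a step that inactivates the hormone, fell 3.10-fold. Among probe sets named for early steps of gibberellin synthesis, ent-kaurenoic acid oxidase (Cit.12119.1.S1_s_at) rose 2.10-fold, while Cit.6993.1.S1_at, cut to ent-kau on the array, and Cit.26661.1.S1_at, cut to ent-kaurene, were lower by differences of -0.86 and -0.57. The gibberellin-responsive GASA5-like gene (Cit.35768.1.S1_s_at) rose 2.14-fold. Of the 36 gibberellin probe sets 12 (33.3%) were called higher and 10 (27.8%) lower.

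For abscisic acid, whose synthesis begins with the cleavage of carotenoids, probe sets named for carotenoid-cleaving dioxygenases held 1 rise and falls. Whether each of them acts in abscisic acid synthesis was not tested. NCED4 (Cit.8156.1.S1_at) read 9.31 and 9.35 at stage 2 against 8.10 and 8.07 at stage 1. A 9-cis-epoxycarotenoid dioxygenase (Cit.13915.1.S1_at) was lower, with 6.28 and 6.34 against 7.26 and 7.31. Cit.17235.1.S1_s_at, cut to 9-cis-e on the array, was also lower, with 5.35 and 5.55 against 6.51 and 6.60. The abscisic acid 8′-hydroxylase (Cit.13424.1.S1_at), which breaks the hormone down, fell 2.48-fold. In the auxin list 28 of 110 probe sets (25.5%) were called higher and 29 (26.4%) lower. A GH3 gene (Cit.12252.1.S1_at), whose family ties up free auxin, fell 2.31-fold. Cit.26243.1.S1_at, cut to auxin-respon on the array, fell 2.26-fold. Cit.5550.1.S1_s_at, cut to aux/IAA, fell 2.12-fold, and the other probe set of that gene differed by -0.81. AUX28 (Cit.13997.1.S1_at) rose 1.82-fold.

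The rises were led by genes that plants use when phosphate is short. Such plants free phosphate from pyrophosphate and phospholipids, replace phospholipids by galactolipids, and sense phosphate through SPX-domain proteins. Inorganic pyrophosphatase 2-like had the largest rise of all probe sets, with 10.83 and 10.83 at stage 2 against 7.87 and 7.94 at stage 1 (Cit.24426.1.S1_s_at, difference 2.93 ± 0.033, SE, n = 2 arrays each, adjusted p = 1.6e-05). The gene's other probe set (Cit.24426.1.S1_at) lay at the floor, with 4.43 and 3.95 against 4.10 and 4.11, and was not called. The probe sets Cit.2899.1.S1_s_at and Cit.2900.1.S1_at, with the same homologue name, rose 6.46-fold and 4.78-fold. The glycerol-3-phosphate transporter 1-like gene (Cit.11606.1.S1_s_at) read 9.57 and 9.63 against 7.01 and 7.18, and transporter 1 (Cit.34850.1.S1_s_at) rose 4.62-fold.

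Lipid-remodelling genes stood beside them. Monogalactosyldiacylglycerol synthase (Cit.21988.1.S1_s_at), which makes galactolipid, read 8.41 and 8.42 at stage 2 against 5.85 and 6.03 at stage 1, a 5.54-fold rise, and the other probe set of the gene rose 2.71-fold. The glycerophosphodiester phosphodiesterase GDE1-like gene (Cit.11083.1.S1_s_at), which breaks the remains of phospholipids down, rose 4.27-fold and phospholipase D (Cit.7311.1.S1_at) rose 4.08-fold. SPX1-like (Cit.10471.1.S1_s_at) read 10.37 and 10.38 against 8.30 and 8.32, and SPX3-like (Cit.5440.1.S1_s_at) read 6.79 and 6.91 against 5.17 and 5.32. Most of these genes have no phosphate name on the array, and among the 31 probe sets that do, 14 (45.2%) were called higher, 3 of them 2-fold or more, and 3 lower.

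Several terpene synthases, which make the scent and oil compounds of citrus, also rose. Limonene synthase (Cit.23529.1.S1_at) read 8.71 and 8.82 at stage 2 against 5.83 and 6.20 at stage 1, a 6.72-fold rise. A sesquiterpene synthase (Cit.17266.1.S1_at) read 11.62 and 11.61 against 10.12 and 10.12, and α-farnesene synthase (Cit.26670.1.S1_at) read 8.24 and 8.30 against 6.74 and 6.85. Of 23 terpene synthase probe sets 10 (43.5%) were called higher, 5 by 2-fold or more, and 2 lower. One that was lower was γ-terpinene synthase (Cit.14453.1.S1_at), with 4.98 and 5.04 against 5.73 and 5.80.

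Some genes of the circadian clock and of light responses rose, with no 2-fold fall in their list. LHY is a core repressor of the plant clock that peaks at dawn. One LHY probe set (Cit.19897.1.S1_s_at) read 8.80 and 8.77 at stage 2 against 7.48 and 7.49 at stage 1, and another by array name (Cit.17027.1.S1_s_at) read 10.88 and 10.86 against 9.56 and 9.62. CONSTANS-like 2 (Cit.17882.1.S1_s_at) rose 2.42-fold and a light-regulated protein (Cit.10673.1.S1_at) rose 3.12-fold. Of 54 probe sets 23 (42.6%) were called higher, 6 of them by 2-fold or more, and 5 lower. Leaving out either stage 2 array gave 15 higher and 1 lower. The hour of sampling is not given in the sources used here, so stage and time of day cannot be told apart for these genes.

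Cell-wall lists held many small rises and a few large falls. Pectinesterases prepare pectin for breakdown, expansins loosen walls, and xyloglucan endotransglucosylases cut and rejoin the tethers between cellulose fibres. Among 64 probe sets for pectin enzymes 30 (46.9%) were called higher and 8 lower, with a median of 0.15. Among 64 for xyloglucan enzymes, expansins and wall hydrolases 26 (40.6%) were higher and 6 lower, with a median of 0.16. A pectinesterase (Cit.193.1.S1_s_at) read 10.83 and 10.84 at stage 2 against 9.45 and 9.46 at stage 1, a 2.60-fold rise, and β-expansin 1a (Cit.39752.1.S1_at) rose 2.29-fold. The xyloglucan endotransglucosylase 33-like gene (Cit.24850.1.S1_s_at) rose 2.10-fold.

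Against these stood pectinesterase 2-like (Cit.6756.1.S1_at), with 4.02 and 4.04 at stage 2 against 7.87 and 7.97 at stage 1, a 14.9-fold fall to the floor. β-D-xylosidase 1-like (Cit.28480.1.S1_s_at), which trims xylan, read 4.92 and 4.98 against 9.78 and 9.85, a 29.1-fold fall. β-galactosidase (Cit.11079.1.S1_at) read 9.06 and 9.07 against 11.37 and 11.36. In the extensin and arabinogalactan list, structural proteins of the wall, 26 of 84 probe sets (31%) were called higher and 6 (7.14%) lower by array name, none by 2-fold. Among homologue names of that kind, the pollen Ole e 1 and extensin family gene (Cit.3982.1.S1_at) differed by 1.45 and an arabinogalactan peptide 22-like gene (Cit.17450.1.S1_at) by -1.36.

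**Figure D3:**
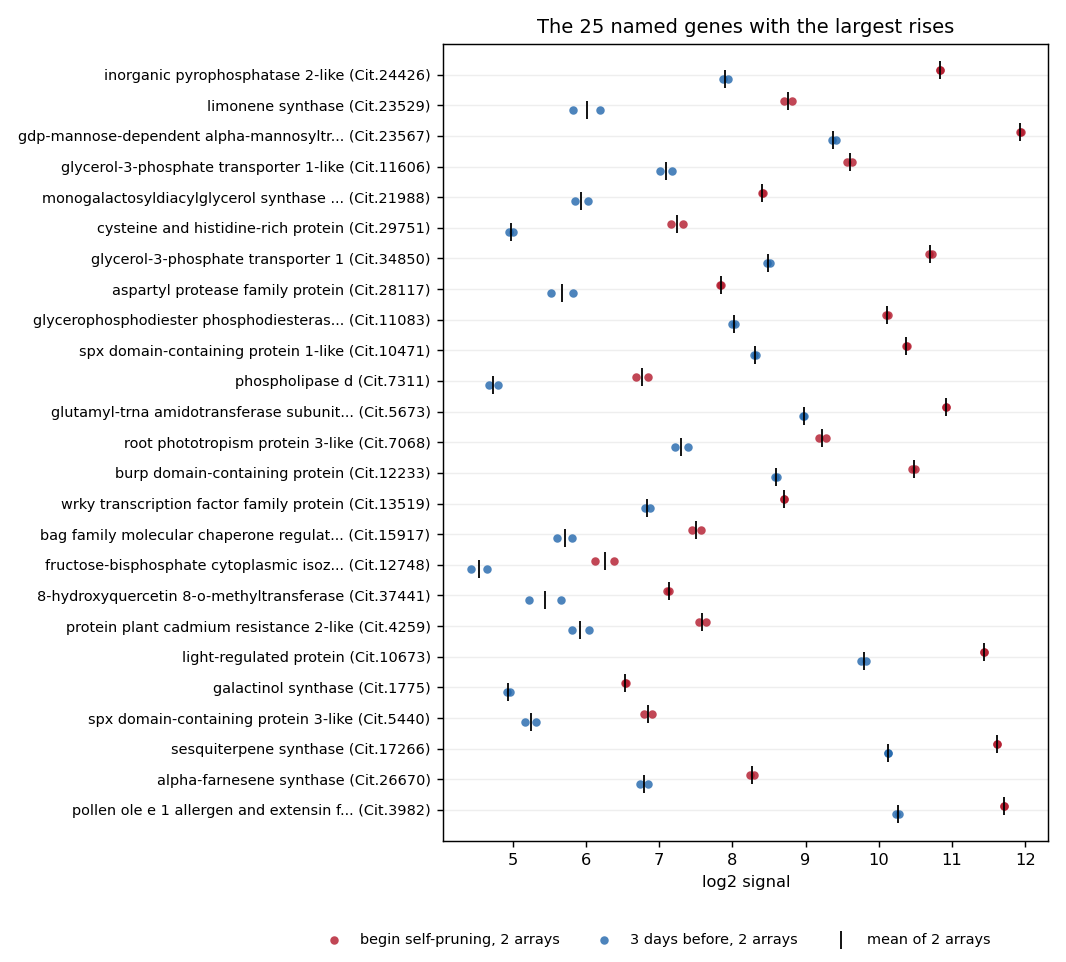
log2 signal (horizontal axis) of the 25 named genes with the largest rises, each point 1 array, begin self-pruning in red above 3 days before in blue, black ticks marking the mean of 2 arrays. Genes were chosen only where the arrays of the stages do not overlap. The differences run from 2.93 for inorganic pyrophosphatase 2-like to 1.45 for the pollen Ole e 1 and extensin family gene.

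Further rises included proteases. An aspartyl protease (Cit.28117.1.S1_s_at) read 7.85 and 7.83 at stage 2 against 5.52 and 5.83 at stage 1, nepenthesin-2 (Cit.25191.1.S1_s_at), a second aspartic protease, rose 2.73-fold, and a cysteine proteinase (Cit.6247.1.S1_s_at) rose 2.55-fold. Over the 86 probe sets with protease names on the array 26 (30.2%) were called higher and 9 (10.5%) lower. The vacuolar processing enzyme (Cit.8595.1.S1_s_at), a protease linked to cell death in plants, was lower, with 9.97 and 9.96 against 10.93 and 10.95. A WRKY factor (Cit.13519.1.S1_at) rose 3.65-fold, a BURP domain protein (Cit.12233.1.S1_s_at) 3.68-fold and the root phototropism protein 3-like gene (Cit.7068.1.S1_at) 3.81-fold. Galactinol synthase (Cit.1775.1.S1_s_at), the first step to raffinose sugars, read 6.54 and 6.55 against 4.96 and 4.92, while a trehalose-phosphate synthase (Cit.31285.1.S1_at) fell 4.98-fold.

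Of the 22 probe sets that rose 4-fold, 9 had no homologue in the study's search, against 11 of the 109 that fell 4-fold. That search covered genes the study had chosen for changing between these same samples, so the homologue names used above are no independent sign of a direction. The 4 unnamed genes with printed primers all passed that limit. Cit.1868.1.S1_s_at read 11.09 and 11.06 at stage 2 against 8.59 and 8.56 at stage 1, and Cit.30672.1.S1_at read 11.86 and 11.85 against 9.37 and 9.35. Cit.9817.1.S1_at read 11.44 and 11.52 against 9.05 and 9.19, and Cit.8587.1.S1_s_at read 9.29 and 9.33 against 6.89 and 7.03. Each rose between 5.09-fold and 5.66-fold, and the further probe sets of Cit.30672 and Cit.9817 rose 4.69-fold and 4.76-fold.

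Broad gene classes shifted by amounts that the controls also reached. Genes named for photosystems and chlorophyll were called higher in 36 of 70 probe sets (51.4%) and lower in 6, with a median of 0.18. MAP kinases were called higher in 16 of 29 and lower in 3, with a median of 0.19, and leaving out 1 array at a time gave 8 to 10 higher. Ribosomal protein genes were called lower in 152 of 345 probe sets (44.1%) and higher in 18, with a median of -0.11, and proteasome genes were called lower in 22 of 51 and higher in 1. With each array centred on its median, 83 ribosomal probe sets were lower and 30 higher, and 7 proteasome probe sets were lower and 3 higher. Leaving out 1 array at a time gave 11 to 12 lower proteasome probe sets. By more than 0.40, the largest control difference in either direction, 11 photosystem and 1 MAP kinase probe sets were higher, and 18 ribosomal and 0 proteasome probe sets were lower. That limit was set by a control rise, and the largest control fall was -0.24. The proteasome probe sets Cit.12917.1.S1_at, Cit.6245.1.S1_at and Cit.6246.1.S1_s_at fell beyond the latter, with differences of -0.38, -0.31 and -0.30.

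Single members stood apart from their class. Chlorophyllase 1 (Cit.12810.1.S1_at), which removes the tail of chlorophyll, read 8.62 and 8.63 at stage 2 against 10.88 and 10.85 at stage 1. Ribosomal protein S24-2-like (Cit.3036.1.S1_s_at) read 9.19 and 9.19 against 11.59 and 11.59, a 5.26-fold fall in a class whose quartiles were -0.20 and 0.03. Cell cycle genes, here cyclins, kinesins and replication factors, were called lower in 31 of 100 probe sets (31%) and higher in 15 (15%), with a median of -0.05. The replication factor CDC6 (Cit.31015.1.S1_at, cell division control 6) read 5.83 and 6.0 against 6.83 and 7.0.

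**Figure D4:**
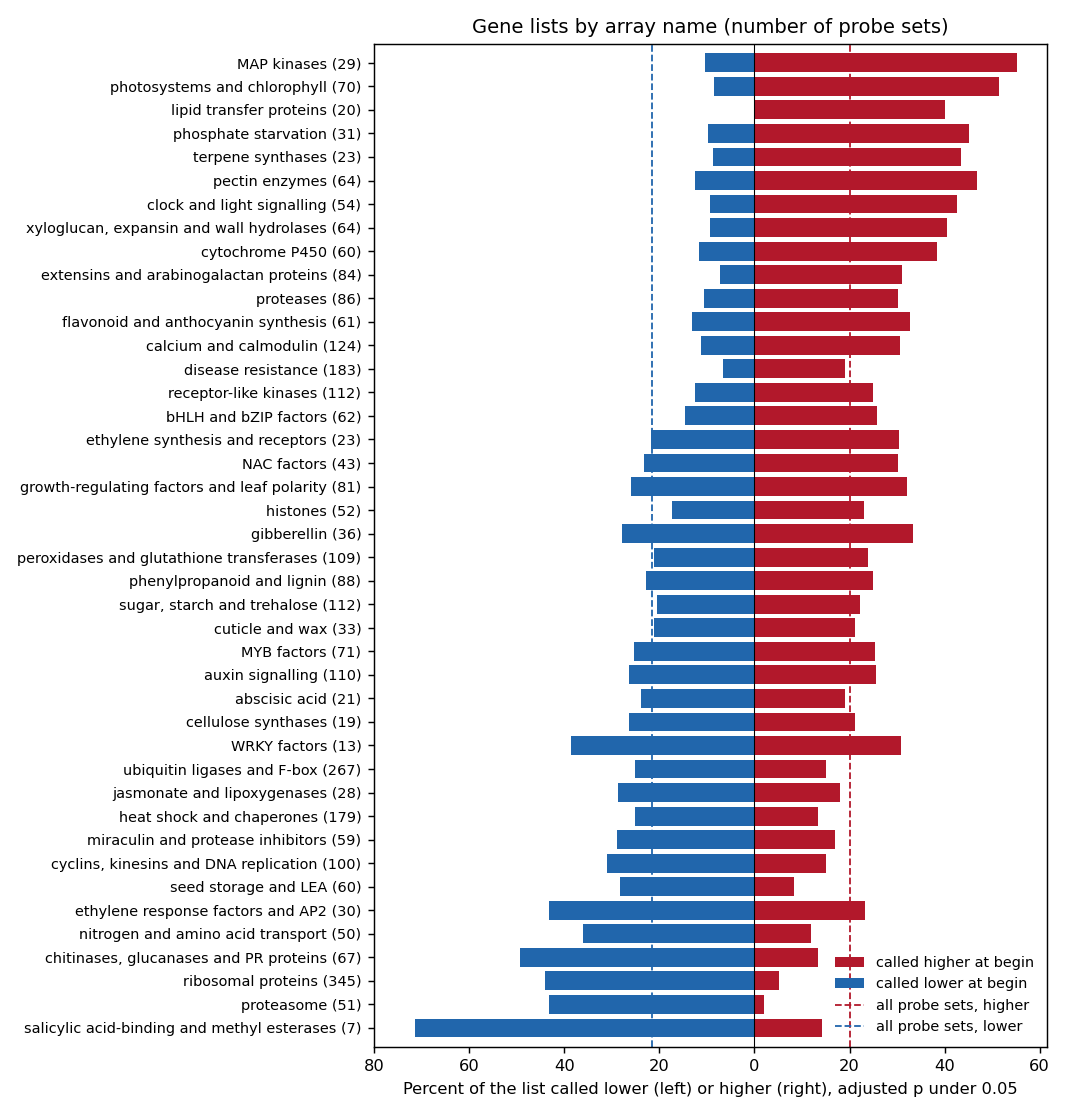
Percent of each gene list called higher at begin (red, right) or lower at begin (blue, left), lists taken by array name with their number of probe sets, dashed lines marking 20.2% higher and 21.5% lower over all probe sets. MAP kinases and photosystem genes reach furthest to the right, and esterases (71.4% lower), chitinases and PR proteins (49.3%) and ribosomal proteins (44.1%) furthest to the left.

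**Figure D5:**
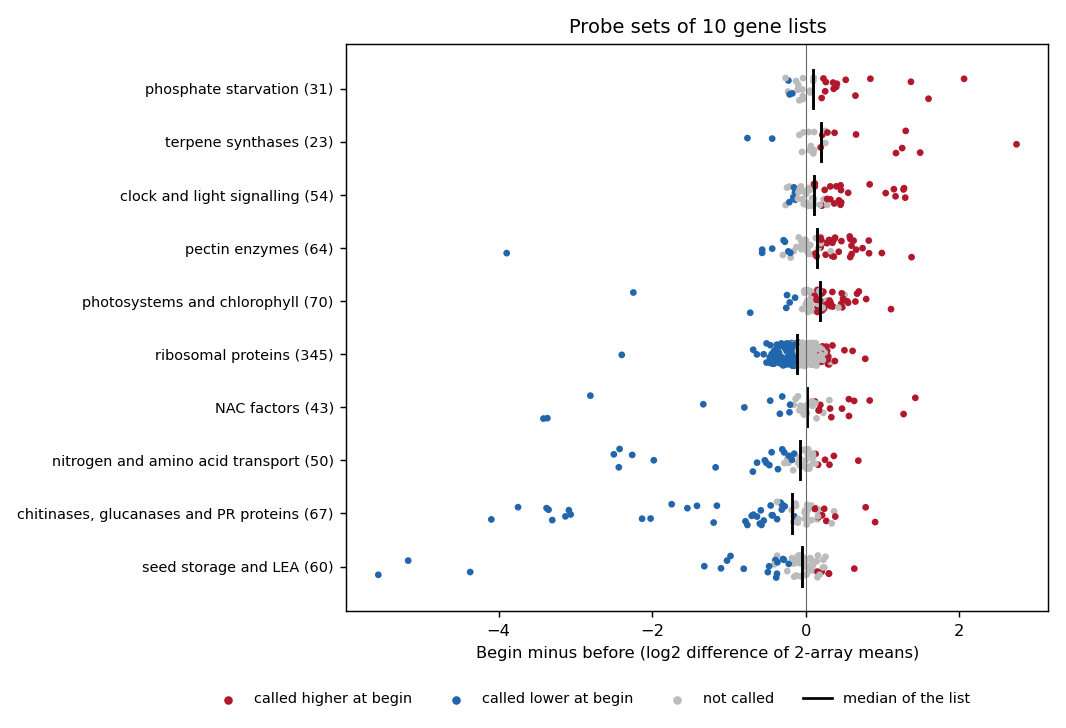
Begin minus before (log2 difference, horizontal axis) for every probe set of 10 gene lists, red where called higher, blue where called lower, grey where not called, black bars marking list medians. Ribosomal proteins have a median of -0.11 and lie mostly near 0, while chitinases and PR proteins, seed proteins and nitrogen genes have long tails of falls.

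Marker genes of cell types in the tip were checked against the label, which calls the tissue shoot meristems. The 3 meristem probe sets (KNOTTED-like genes and a CLAVATA1 receptor) differed by 0.08 to 0.15, 2 of them called higher. At both stages they read above the reporter controls but within the range of the random-sequence controls. Of 8 leaf primordium probe sets 4 were called lower, with YABBY1 (Cit.15713.1.S1_at) at 10.82 and 10.86 at stage 2 against 11.55 and 11.56 at stage 1, and none was higher. Protodermal factor (Cit.10203.1.S1_s_at), which marks the epidermis, read 13.65 and 13.64 against 13.67 and 13.64. Of the 9 epidermal probe sets 2 were called higher and 3 lower. The rises were HOTHEAD-like genes, by 1.28 and 1.40, and the largest fall was a protodermal factor 2-like homeobox gene (Cit.23310.1.S1_at) at -1.44. Of 13 xylem and fibre probe sets 6 were called higher, all fasciclin-like, and 3 lower, all laccases. In that list 7 lay at or below the brightest reporter control at both stages. The summed signal of 23 green leaf probe sets was 16.94 to 16.95 at stage 2 against 16.76 to 16.78 at stage 1 on the log2 scale. The part of cell composition in the changes above was not tested.

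By 7 days after self-pruning, ERF017-like read 12.25 and 12.25 and the LHY probe set Cit.19897.1.S1_s_at read 4.59 and 4.51, levels outside the range of both earlier stages. LEA 4 (Cit.10895.1.S1_at) then read 7.26 and 7.29, between the other stages.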

How the data were processed

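Shoot tips were hybridised to a citrus GeneChip, 2 arrays a stage. The authors deposited log2 signals, summarised by RMA in Expression Console according to the methods, which also name MAS 5.0; stage means deposited beside them matched the 2-array means within 7e-05, and the deposited fold changes and p-values of the authors' own comparisons were not used. Here limma 3.58.1 (R 4.3.3) was fitted to 30171 citrus probe sets on all 6 arrays, which share the residual variance (3 residual and 1.55 prior degrees of freedom), the contrast being begin minus before, with Benjamini-Hochberg adjustment over all probe sets. Calls are at an adjusted p under 0.05. In simulated data of the same size, a share of 0.63 of differences of 0.5, 0.92 of 1 and 0.995 of 2 log2 units were called, and 0.0486 of calls were false. The simulated arrays had independent noise and few changed probe sets, unlike these data, so the shares need not carry over. The number of arrays limits the precision.

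Gene names come from the study's homology search (1377 probe sets, chosen there for changing between these samples, so a name from it is not independent evidence of change) and from best-hit names on the array, cut to a median of 7 letters, by which the 42 gene lists were formed. Named are the 25 largest rises and falls with an informative homologue name and non-overlapping arrays, up to 4 members each way per list, further probe sets of those genes, and, singled out after their values were seen, the marker genes, the unnamed risers and the DNA binding protein. The members and lists were chosen with earlier results of these data known. Alternatives were centring, quantile normalization, other variance models, a replicate block, fewer arrays, filters and SAM (Python 3.11.15 for tables and figures). A probe set with ending x_at or s_at can read several related transcripts.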

Additional observations from a re-analysis of the deposited data

How the results depend on the processing

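Every one of the 50 genes with the largest named rises and falls kept its direction and an adjusted p under 0.05 in all 12 alternatives fitted for it, which leave out SAM. These genes were chosen from the same arrays for large, non-overlapping differences past that limit. The alternatives refit those arrays, so this outcome was close to fixed by the choice and is no independent check. The count of 4-fold changes, 22 higher and 109 lower, moved by more than 1.5 times only with SAM on the 4 arrays, which gave 10 and 69. SAM's adjusted p was at least 0.333 with only 6 relabellings of 4 arrays, so it called 0 probe sets higher and 0 lower, and at an unadjusted p under 0.05 it had 2235 and 2207. Leaving out 1 array in turn gave 20 to 24 probe sets 4-fold higher and 102 to 112 lower, and 4059 to 4383 called higher and 4160 to 4904 lower. Centring each array on its median gave 7145 higher and 4626 lower, 4543 of these lower calls being shared with the deposited scaling, and moved the median of all probe sets to 0.06. Samples of the same replicate number deviated together across stages (correlation 0.46 to 0.56 for each pair of stages, across probe sets), but with 2 numbers and no label that ties them to a tree they share only a number. With that number as a replicate block 7492 were called higher and 7613 lower, and the 4-fold counts were unchanged at 22 and 109. List medians changed sign in at least 1 alternative for heat shock, WRKY, MYB, bHLH and bZIP, abscisic acid, jasmonate, miraculin, cuticle, and ubiquitin ligase genes, all with medians between -0.05 and 0.03. Of the counts of calls in the gene lists, 136 of their alternative values moved by over 1.5 times and 872 did not. Without before replicate 1, 10 flavonoid, 12 cytochrome P450 and 18 disease resistance probe sets were higher, without before replicate 2, 20 cyclin and 18 auxin probe sets were lower, and without begin replicate 1, 5 NAC and 5 gibberellin probe sets were lower. The terpene synthase median was 1.18 with probe sets below the 0.25 quantile of mean signal left out. Control probe sets differed by -0.24 to 0.40, so differences within that range are no larger than those of controls, and signals near the reporter controls give no measure of how low a gene fell.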
